A study of Mus musculus with 5 samples.

Results

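Mt1 and Mt2 encode metallothioneins, small intracellular proteins that bind zinc and copper. They are 2 of the 31053 genes counted in 5 droplet single-cell libraries of mouse liver, and they were chosen for their high levels at 24 h and 48 h after partial hepatectomy (PHx) in these same libraries. Their levels across libraries are therefore a description and carry no test. Each library was 1 group of C57BL/6J mice: unoperated mice at postnatal day 14 (P14), an adult control, and adults at 24 h, 48 h and 96 h after PHx, an operation that takes out most of the liver, done at 8 weeks of age. Cells were freed by perfusion and cleared of dead cells with a kit. The labels contradict each other on the adult control. A protocol lists it with the mice operated at 8 weeks of age, while its title calls it a control, and it was used as the control. The descriptions carry a code that is 2 here and 1 in the other 4 libraries, so an effect of what it stands for cannot be told apart from an effect of the control group. The number and sex of the animals are not given, and no group has a replicate. Hepatocyte barcodes were defined by at least 5000 unique molecular identifiers (UMIs), 10% to 30% mitochondrial UMIs and at least 1% of UMIs from Alb, Apoa1 and Ttr. There were 5691 in all, with 925 barcodes in the adult control, 1170 at 24 h, 719 barcodes at 48 h, 771 at 96 h and 2106 barcodes in P14.

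Metallothioneins hold metal ions through clusters of cysteines and buffer the free zinc and copper of the cell. In liver they are made mainly by hepatocytes, and their genes are known targets of the zinc-sensing factor MTF1, which binds metal response elements, and of glucocorticoids and inflammatory cytokines. High hepatic metallothionein is also known from newborn and regenerating liver.

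Both genes lie on chromosome 8 of the mouse (GENCODE M21, GRCm38), on the forward strand and 5514 bases apart, with 3 exons each. Mt1 (ENSMUSG00000031765) spans 94179082 to 94180327 and Mt2 (ENSMUSG00000031762) spans 94172664 to 94173568. The other family members counted, Mt3 (94152607 to 94154146) and Mt4 (94137197 to 94139031), lie in the same stretch. The sequences below show the upstream region of each member, the first 280 bases of the RefSeq window (GRCm38.p6) that begins 250 bases before the start, because both genes were high in the same libraries and MTF1 sites are known near them. Capitals mark matches to the core of the metal response element, TGCACNC or TGCGCNC, searched on both strands.
Mt1, chr8:94178839-94179118: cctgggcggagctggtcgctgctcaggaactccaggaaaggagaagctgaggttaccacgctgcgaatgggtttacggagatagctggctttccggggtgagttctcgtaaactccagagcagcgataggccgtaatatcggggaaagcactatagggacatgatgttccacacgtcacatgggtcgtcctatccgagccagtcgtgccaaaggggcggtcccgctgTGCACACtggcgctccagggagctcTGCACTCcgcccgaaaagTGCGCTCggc
Mt2, chr8:94172368-94172647: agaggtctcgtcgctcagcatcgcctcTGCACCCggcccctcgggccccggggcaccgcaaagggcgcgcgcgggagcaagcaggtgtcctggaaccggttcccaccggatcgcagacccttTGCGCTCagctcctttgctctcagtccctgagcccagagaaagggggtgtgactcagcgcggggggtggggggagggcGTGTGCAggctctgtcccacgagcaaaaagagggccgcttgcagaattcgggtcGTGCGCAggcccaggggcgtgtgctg

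Mt1 held 3 matches, which began at positions -23, 2 and 20 when the RefSeq start base is 0 and negative positions lie upstream. Mt2 held 4 matches, at -223, -128, -50 and 4. Of 32544 distinct RefSeq windows of the same 300-base length, 25.9% held at least 1 match, 1.32% at least 3 and 0.298% at least 4. Mt3 and Mt4, from the same stretch of the chromosome, held 1 match each. The Mt2 window also held 1 match to the core of the antioxidant response element, TGACNNNGC, at position -79, a motif found in 12.4% of windows. Neither window held the paired half-sites TTCNNNGAA of STAT factors, found in 8.33% of windows. A match is a run of letters and not a measured site. GENCODE also lists Mt1 starts 122 and 152 bases downstream of the RefSeq start and puts the starts of Mt2 46 and 242 bases downstream, and the sequence nearest those starts lies partly outside the windows.

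The coding sequences of the members are shown because their counts are compared with each other, with the codons TGC and TGT, which encode cysteine, in capitals.
Mt1: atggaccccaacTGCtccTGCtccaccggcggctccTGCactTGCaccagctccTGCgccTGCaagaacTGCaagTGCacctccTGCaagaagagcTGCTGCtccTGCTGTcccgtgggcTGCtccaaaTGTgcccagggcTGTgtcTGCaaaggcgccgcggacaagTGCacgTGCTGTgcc
Mt2: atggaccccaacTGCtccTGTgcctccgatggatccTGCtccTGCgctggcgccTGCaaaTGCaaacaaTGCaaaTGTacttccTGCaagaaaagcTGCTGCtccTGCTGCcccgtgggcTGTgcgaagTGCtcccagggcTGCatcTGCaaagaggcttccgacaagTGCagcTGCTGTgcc

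Each coding sequence had 61 codons, 20 of them for cysteine, and all 20 cysteine codons stood at the same positions in both genes. The same codon was used at 33 of the 61 positions, and 145 of 183 bases (79.2%) were identical. The longest run of bases shared by their transcripts was 20. Reads in longer runs therefore differ between the members, although how ambiguous reads were counted is not given in the sources used here. A UMI stands for 1 captured transcript, so levels of the members were compared as UMIs without division by length, and their annotated transcripts are of like length (549 bases for Mt1 and 511 for Mt2).

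The median depth of the hepatocyte barcodes ran from 18527 UMIs in the adult control to 38922.5 UMIs in P14. Their median mitochondrial share lay between 20.6% and 26.0%. All 10 listed hepatocyte markers were detected in every library, with a summed level of 227940 CPM in P14 and 62075 to 120193 CPM in the other 4. CPM are UMIs of a gene per 1000000 UMIs, taken from summed counts without mitochondrial genes. Markers of other cells were also counted in these barcodes. Erythroid markers summed to 149 to 714 CPM and monocyte or dendritic markers to 117 to 259 CPM. Neutrophil markers summed to 11.0 CPM in the adult control, 102 CPM at 24 h, 191 CPM at 48 h, 21.4 CPM at 96 h and 27.5 CPM in P14, so they were highest at the same 2 times as Mt1 and Mt2, and their part in the metallothionein level was not tested. Endothelial markers summed to 12.9 to 29.5 CPM, macrophage markers to 0.521 to 7.66 CPM, and the T or NK, B, mesenchymal, cholangiocyte and platelet lists to between 1.20 and 46.8 CPM each. In all, 14907 barcodes of at least 3000 UMIs, 500 genes and at most 30% mitochondrial UMIs were clustered. Only P14 had hepatocyte barcodes in a cluster that its leading genes named hepatocyte-like (179 of 2106). Most of the others lay in clusters that stayed unnamed. A name needed markers at least 2-fold above all other clusters together, and several of those clusters were also mostly hepatocyte barcodes. An unnamed cluster therefore does not tell whether its barcodes were hepatocytes. Libraries of hepatocyte barcodes shared 3 barcode sequences in all, 2 between P14 and the adult control and 1 between P14 and 48 h. Intervals are exact 95% limits that cover counting error only.

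Mt1 stood well below the most abundant hepatocyte transcripts in the adult control and was one of them at 24 h and 48 h. It stood at 119 CPM in the adult control, 8399 CPM at 24 h, 6980 CPM at 48 h, 251 CPM at 96 h and 261 CPM in P14, from 1589, 163912, 145418, 3376 and 16839 UMIs. Its rank by UMIs among all counted genes except the mitochondrial ones was 1224 in the adult control, 497 in P14, and 11, 17 and 629 at the times after PHx. Mt2 stood at 39.9 CPM in the adult control, 3759 CPM at 24 h, 2576 CPM at 48 h, 53.7 CPM at 96 h and 15.2 CPM in P14, from 532, 73361, 53662, 722 and 979 UMIs. Its rank was 3176 in the adult control, 35 and 44 at 24 h and 48 h, 2597 at 96 h and 5299 in P14. Both genes thus stood far above the adult control at the first 2 times and much closer to it, though still above it, at 96 h, and they differed from each other in P14, where Mt1 was above the adult control and Mt2 below it.

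**Figure D1:**
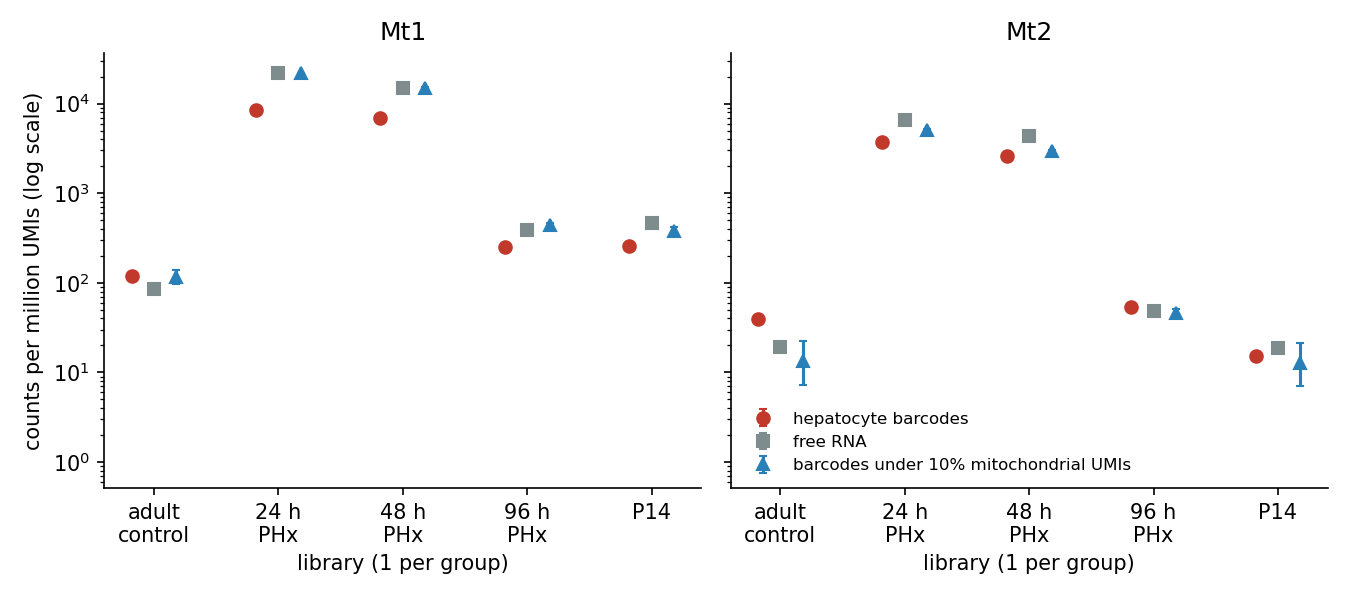
Level of Mt1 (left) and Mt2 (right) in CPM on a log axis, for each of the 5 libraries, in hepatocyte barcodes (circles), free RNA (squares) and hepatocyte-transcript barcodes of under 10% mitochondrial UMIs (triangles); bars are 95% counting intervals. At 24 h and 48 h both genes stood between 2576 and 22047 CPM in all 3 sets, against at most 119 CPM in the adult control.

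Ratios were taken of CPM + 1, the added 1 CPM keeping low genes from extreme ratios. The intervals are those of the count ratio, without the added CPM. Mt1 was 69.8-fold the adult control at 24 h (log2 6.13, 6.07 to 6.21), 58.0-fold at 48 h (5.86, 5.80 to 5.94) and 2.10-fold at 96 h (1.07, 0.99 to 1.16). Mt2 was 91.8-fold the adult control at 24 h (log2 6.52, 6.43 to 6.68), 62.9-fold at 48 h (5.98, 5.89 to 6.14) and 1.34-fold at 96 h (0.42, 0.26 to 0.59). The last of these was -0.07 when Alb, Apoa1 and Ttr had to make up at least 3% of UMIs. From 24 h to 48 h both genes were lower, Mt1 by 1.20-fold and Mt2 by 1.46-fold, and from 48 h to 96 h Mt1 was 27.7-fold and Mt2 47.1-fold lower. In P14, Mt1 was 2.18-fold higher than in the adult control (log2 1.12, 1.05 to 1.20) and Mt2 2.53-fold lower (log2 -1.34, -1.55 to -1.24). These P14 ratios sit on a shift of all genes: the median log2 ratio of P14 over the adult control was -0.26 by CPM and 0.02 with TMM factors, which gave 1.41 for Mt1 and -1.07 for Mt2. Among genes that reached 5 CPM in the library or the adult control, 8.51% were at least 2-fold higher and 7.13% lower at 24 h, and 8.3% higher and 7.63% lower at 48 h. The shares were 4.07% higher and 1.88% lower at 96 h, and 7.89% and 13.8% in P14. Mt1 and Mt2 were both among the higher genes at 24 h and 48 h, the contrasts by which they had been chosen.

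Together Mt1 and Mt2 made up 1.22% of the hepatocyte UMIs at 24 h and 0.956% at 48 h. They made up 0.0159% in the adult control, 0.0305% at 96 h and 0.0276% in P14. The summed level was 75.9-fold the adult control at 24 h (log2 6.25, 6.19 to 6.32), 59.6-fold at 48 h (5.90, 5.84 to 5.97), 1.91-fold at 96 h (0.93, 0.86 to 1.01) and 1.73-fold in P14 (0.79, 0.73 to 0.86). By summed level the libraries ran from the adult control (159 CPM) through P14 (276), 96 h (305) and 48 h (9556) to 24 h (12158). The counting intervals of neighbouring libraries did not overlap, but with 1 library per group the spread between animals is unknown.

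Free RNA was measured in 40000 barcodes per library of low rank by UMIs, down to rank 60000, and was also highest in both transcripts at 24 h and 48 h, with larger ratios over the adult control than in hepatocytes; by summed level P14 stood above 96 h here, the reverse of the hepatocyte order. These barcodes held a mean of 1328 UMIs in the adult control, 466 UMIs in P14, and 670, 290 and 795 UMIs at the times after PHx, so the adult control set was the deepest. Mt1 and Mt2 together stood at 28629 CPM of free RNA at 24 h, where they made up 2.86% of it, at 19376 CPM at 48 h, 442 CPM at 96 h, 105 CPM in the adult control and 484 CPM in P14. The free-RNA level was 2.35-fold the hepatocyte level at 24 h, 2.03-fold at 48 h, 1.45-fold at 96 h and 1.75-fold in P14, but 0.656-fold in the adult control. Alb, the plasma albumin transcript, stood lower in free RNA than in hepatocytes in every library, at 0.335 to 0.727 of the hepatocyte level. Among 3046 genes of at least 50 CPM in either set at 24 h, 4.76% had a ratio of free RNA to hepatocytes as high as that of Mt1 and 19.9% as high as that of Mt2. At 48 h these shares were 5.04% and 13.5% of 2820 genes, whereas in the adult control 90.3% and 99.1% of 2894 genes were as high. Per barcode, however, free RNA was thin: it held 19.0 Mt1 and Mt2 UMIs at 24 h against 203 in a hepatocyte barcode, or 9.36% of the latter, and 5.48 against 277 at 48 h, or 1.98%. In the adult control it held 0.138 against 2.29 UMIs (6.03%), at 96 h 0.342 against 5.32 (6.44%) and in P14 0.219 against 8.46 (2.59%). Subtracting this amount from each hepatocyte barcode left summed log2 ratios over the adult control of 6.11 (24 h), 5.83 (48 h), 0.85 (96 h) and 0.72 (P14).

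A second set of barcodes with hepatocyte transcripts had under 10% mitochondrial UMIs and met the other limits. The adult control had 150 such barcodes and P14 had 124, while 24 h, 48 h and 96 h had 328, 176 and 684. Mt1 and Mt2 together stood at 130 CPM in the adult control and 396 CPM in P14, and at 26994, 17962 and 491 CPM at the times after PHx, close to free RNA and above the hepatocyte barcodes outside the adult control. The log2 ratio of the summed level over the adult control was 7.69 at 24 h and 7.10 at 48 h in this set, with 1.91 for 96 h and 1.60 for P14. The ratio of Mt2 in P14 was -0.05 (-1.24 to 1.12), on 14 UMIs in each library. Alb in this set stood below its free-RNA level in every library, at 5064 against 7297 CPM at 24 h and 7364 against 21485 CPM in the adult control. Whether these barcodes were hepatocytes or held mostly free RNA was not tested. The size of the difference thus depended on which barcodes were taken, and both sets had the 24 h library highest.

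Per barcode, the summed level at 24 h and 48 h lay above nearly all adult control values, with free RNA included in each barcode. The summed level per hepatocyte barcode ranged from 3054 to 33699 CPM at 24 h, with a median of 11011, and from 1513 to 29455 CPM at 48 h, with a median of 8772. In the adult control it ranged from 0 to 1523 CPM, with a median of 91.1. No adult control barcode reached the lowest barcode at 24 h, and 1 of 925 exceeded the lowest at 48 h. At 24 h the lower values were in the range of barcodes of other cells. T or NK-like barcodes stood at 3902 CPM, endothelial-like at 5798 and B-like at 7312, beside a 10th percentile of 6908 CPM in hepatocyte barcodes. At 48 h T or NK-like barcodes stood at 1104 CPM, below the lowest hepatocyte barcode, while erythroid-like barcodes stood at 2057 and B-like at 2878 CPM. T or NK-like barcodes were shallower, with median depths of 4725 UMIs at 24 h and 6006 UMIs at 48 h, as were B-like barcodes (3450.5 and 3843.5 UMIs). The same count of free RNA therefore gives them more CPM than it gives a hepatocyte barcode. Whether every hepatocyte had a raised level cannot be told from these ranges. At 96 h the median was 172 CPM, the 90th percentile 765 and the highest barcode 4084 CPM, so that 18 of 771 barcodes lay above the lowest of 48 h and 2 above the lowest of 24 h. In P14 the median was 196 CPM, the 90th percentile 573 and the highest barcode 5260 CPM. The population at 96 h and in P14 thus overlapped broadly with the adult control: 15.6% of barcodes at 96 h and 9.64% in P14 exceeded the adult control's 95th percentile of 585 CPM.

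**Figure D2:**
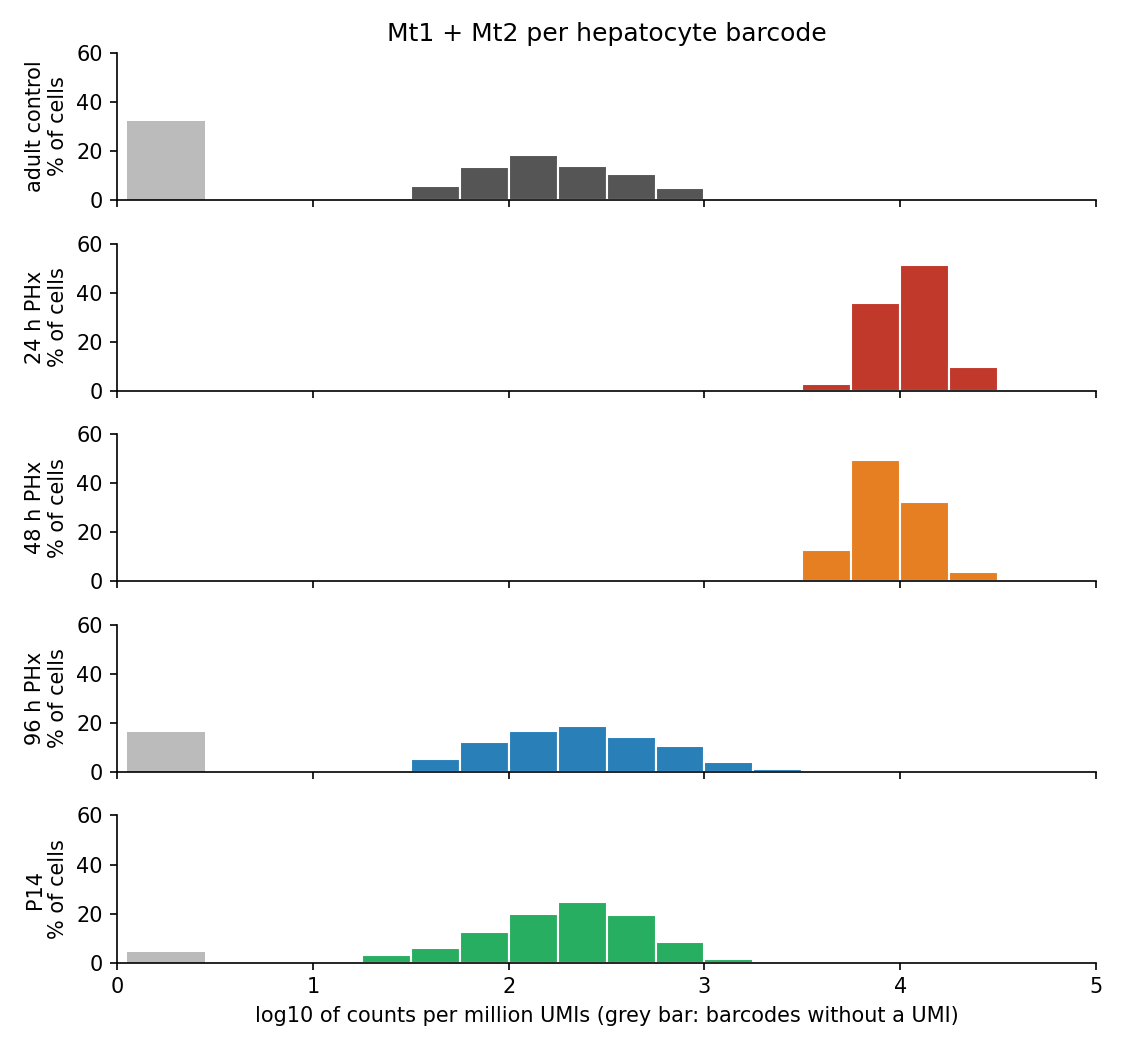
Summed Mt1 and Mt2 level per hepatocyte barcode, as the percent of barcodes in each bin of log10 CPM; grey bars are barcodes without a UMI of either gene. The 24 h and 48 h distributions are narrow and lie to the right of the adult control, whose highest barcode, at 1523 CPM, passes only the lowest of 48 h, while 96 h and P14 overlap it.

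Relative variation between cells was smaller where the level was high. The coefficient of variation left after subtraction of counting noise was 0.352 at 24 h and 0.402 at 48 h. It was 1.09 in the adult control, 1.27 at 96 h and 1.08 in P14. The tenth of barcodes with the highest level held 17.8% of the summed CPM at 24 h and 18.9% at 48 h. It held 40.6% in the adult control, 41.1% at 96 h and 34.1% in P14. For Mt2 alone, the more uniform member at 24 h, the coefficient was 0.288, against 0.402 for Mt1. Outside 24 h and 48 h the median barcode held 1 to 5 UMIs of the 2 genes.

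Detection was compared at equal depth, with each barcode thinned to 5000 UMIs. A UMI of Mt1 or Mt2 was then found in 35.6% of adult control hepatocyte barcodes (32.5% to 38.7%), 100% at 24 h and 48 h, 50.6% at 96 h (47.0% to 54.2%) and 55.3% in P14 (53.1% to 57.4%). Before thinning the shares were 67.8%, 100%, 100%, 83.8% and 95.7%. Both genes were found together in 1170 of 1170 thinned barcodes at 24 h and 718 of 719 at 48 h. In the adult control 50 barcodes had both, 227 Mt1 alone, 52 Mt2 alone and 596 neither. At 96 h 93 had both, 277 Mt1 alone, 20 Mt2 alone and 381 neither, and in P14 74 had both, 1068 Mt1 alone, 22 Mt2 alone and 942 neither. As a background, T or NK-like barcodes, cells in which metallothionein is not a defining product, held a UMI without thinning in 11.1% of barcodes of the adult control (median depth 6184 UMIs), 27.2% at 96 h (6442 UMIs) and 27.4% in P14 (7601 UMIs). Monocyte or dendritic-like barcodes, which were deeper, did so in 17.6%, 42.0% and 40% in the same order. At 24 h the T or NK-like share was 100% and at 48 h 98.9%, so that detection in a barcode at these times did not separate expression from free RNA.

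Mt1 and Mt2 varied together across cells where both were abundant. At 5000 UMIs per barcode the Spearman coefficient of the 2 genes across hepatocyte barcodes was 0.54 at 24 h (1170 barcodes) and 0.52 at 48 h (719), against 0.38 at 96 h (771), 0.16 in the adult control (925) and 0.15 in P14 (2106). Barcodes of a library share their source and the low counts outside 24 h and 48 h limit any coefficient, so these are descriptions.

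The ratio of Mt1 to Mt2 differed between the libraries. There were 2.99 Mt1 UMIs per Mt2 UMI in adult control hepatocyte barcodes (2.71 to 3.30), 2.23 at 24 h (2.21 to 2.25), 2.71 at 48 h (2.68 to 2.74), 4.68 at 96 h (4.31 to 5.07) and 17.2 in P14 (16.1 to 18.4). In hepatocyte barcodes P14 stood apart, with a level of Mt1 close to that at 96 h but less Mt2 than any other library. In free RNA Mt2 of P14 was near the adult control, at 18.6 against 19.3 CPM (log2 -0.05, -0.24 to 0.12). By the ratio of Mt1 to Mt2, free RNA had the same order of libraries as hepatocyte barcodes. The ratio in free RNA was 3.35 and 3.39 at 24 h and 48 h, 4.41 in the adult control, then 8.06 at 96 h and 25.04 in P14. Barcodes of under 10% mitochondrial UMIs had ratios of 4.25 at 24 h, 5.07 at 48 h and 8.71 in the adult control (5.00 to 16.4), then 9.78 at 96 h and 29.8 in P14 (17.6 to 55.0). In each library Mt1 took a larger part in free RNA than in hepatocyte barcodes.

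**Figure D3:**
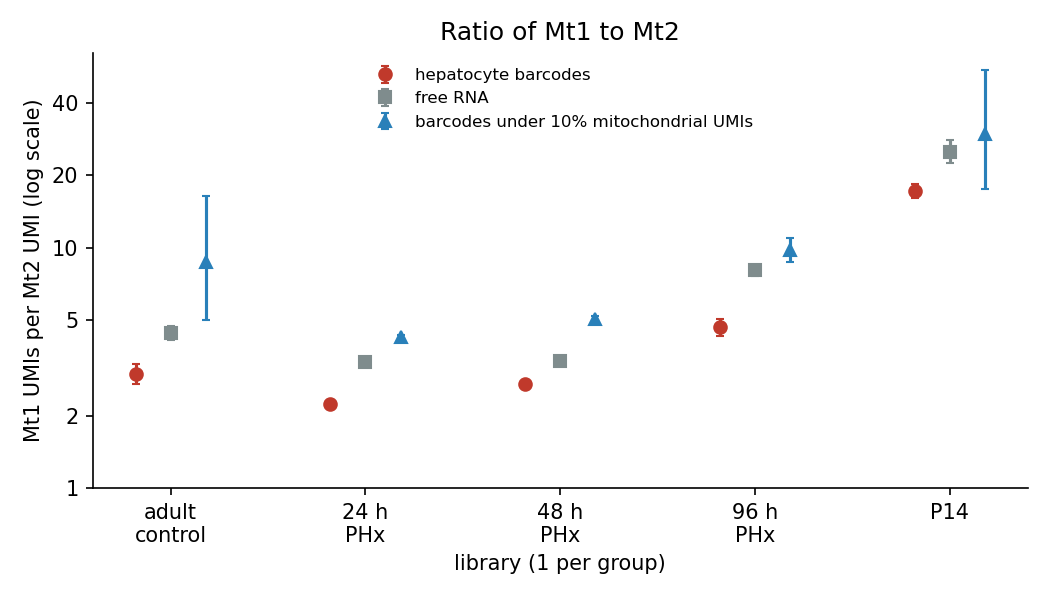
Mt1 UMIs per Mt2 UMI on a log axis for each library, in hepatocyte barcodes, free RNA and barcodes of under 10% mitochondrial UMIs; bars are 95% counting intervals. P14 is highest in all 3 sets (17.2, 25.04 and 29.8), and 24 h is lowest in each (2.23, 3.35 and 4.25).

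The other family members were nearly absent from hepatocyte barcodes. Mt3, known mainly from the nervous system, had 0 UMIs in the adult control and P14, which allows at most 0.225 and 0.0465 CPM, and 27, 4 and 1 UMIs at 24 h, 48 h and 96 h. Mt4, known from stratified epithelium, had 9 UMIs at 24 h, 4 at 48 h and 0 in the other 3 libraries. Neither reached the 5 CPM needed for a ratio, and Mt3 stood at 1.38 CPM at 24 h. Mt3 shares runs of up to 27 bases with Mt1, and whether reads of Mt1 enter its count was not tested.

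Within libraries, the level differed along the lobule to a degree that varied between libraries. Hepatocytes near the portal vein and near the central vein express different enzymes, and each barcode was placed by the mean standardised level of 12 pericentral genes minus that of 12 periportal genes. In the adult control the summed level was 193 CPM in the most periportal tercile (180 to 206), 191 in the middle and 98.8 in the most pericentral tercile (89.9 to 108). At 24 h it went from 13258 (13169 to 13348) through 12291 to 10863 CPM (10780 to 10946). At 96 h the values were 306, 400 and 222 CPM, at 48 h 9453, 10006 and 9224, and in P14 241, 275 and 312. The pericentral tercile was thus lowest in the adult control and in the 3 libraries after PHx, and highest in P14. The tercile values lay closer to each other, as a ratio, at 24 h and 48 h than in the adult control. By rank the level followed the index about as much at 24 h (Spearman coefficient -0.23) as in the adult control (-0.21). The coefficient was -0.07 at 48 h, -0.08 at 96 h and 0.11 in P14. Terciles of the index are ranges and not zones, and 114 to 431 barcodes per library lay within 0.1 of a bound.

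The summed level also moved with other properties of the barcodes. In terciles of the share of Alb, Apoa1 and Ttr it was 81.0, 174 and 225 CPM in the adult control, 10314, 12111 and 13581 CPM at 24 h, and 234, 319 and 359 CPM at 96 h, lowest to highest. At 48 h it was 9614, 10041 and 9045 CPM and in P14 253, 288 and 282 CPM. The tercile with the lowest mitochondrial share had more than the tercile with the highest in each library, with 13372 against 10747 CPM at 24 h, 10138 against 8649 at 48 h, 352 against 263 at 96 h, 305 against 243 in P14 and 164 against 146 in the adult control. The part of these properties in the differences between libraries was not tested.

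Hepatocytes that carried mitosis or replication transcripts at 96 h had fewer metallothionein transcripts than non-cycling ones. Barcodes were mitosis-positive when at least 3 listed mitosis genes had a UMI at 5000 UMIs, and non-cycling with 0 of them and at most 1 replication gene. At 96 h 57 mitosis-positive barcodes stood at 122 CPM (103 to 143, from 148 UMIs), against 336 CPM (325 to 348) in 552 non-cycling barcodes, or 0.362 of their level. Both genes were lower, Mt1 at 104 against 277 CPM and Mt2 at 17.3 against 58.8 CPM. At 96 h 39 replication-positive barcodes, with a UMI of at least 3 listed replication genes, stood at 164 CPM (135 to 197), or 0.486 of the non-cycling level. A barcode can be in both positive classes, and how many were was not counted. In P14 231 mitosis-positive barcodes stood at 226 CPM against 283 CPM in 1388 non-cycling ones. At the times of high expression the classes lay close: 11884 against 12883 CPM at 24 h (143 and 469 barcodes) and 9871 against 9818 CPM at 48 h (279 and 237). Replication-positive barcodes stood at 0.894 of the non-cycling level at 24 h, 1.05 at 48 h and 1.02 in P14. The adult control had 3 mitosis-positive barcodes, with 3 UMIs of either gene, too few to compare.

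At 96 h the mitosis-positive barcodes lay mostly in the pericentral tercile, with 40 of 57 there (70.2%), against 149 of 552 non-cycling ones. Within that tercile they stood at 114 CPM (92.8 to 138) against 279 CPM (260 to 299), and within the middle tercile at 122 CPM (84.1 to 172, 14 barcodes) against 428 CPM (405 to 452). In the periportal tercile 3 barcodes gave 300.03 CPM (155 to 524) against 300.2 CPM. The difference at 96 h was thus present in the middle and pericentral terciles, where all but 3 of the mitosis-positive barcodes lay. The median share of Alb, Apoa1 and Ttr was also lower in the mitosis-positive barcodes, at 4.204% against 5.96%, while the median mitochondrial share was 25.9% and 26.1%. The part of the Alb share in this difference was not tested.

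**Figure D4:**
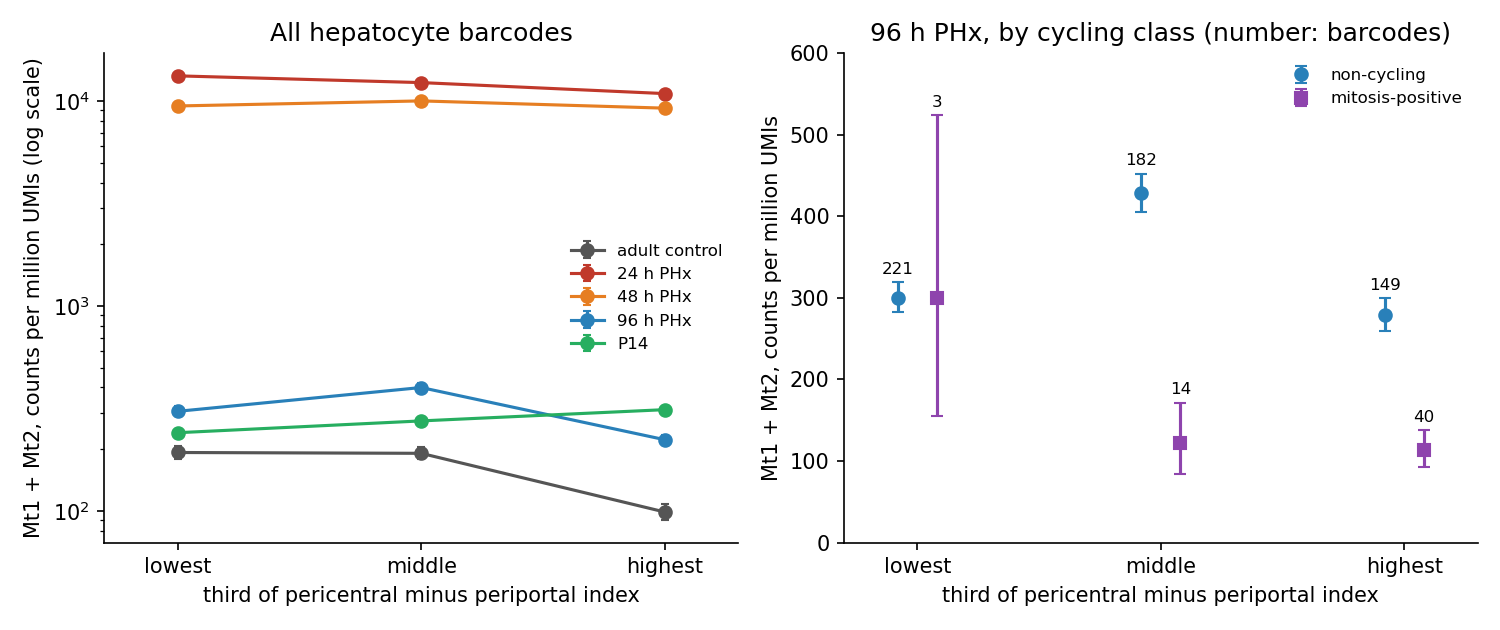
Left, summed Mt1 and Mt2 level (CPM, log axis) by tercile of the pericentral minus periportal index in each library; right, the same level on a linear axis at 96 h for mitosis-positive and non-cycling barcodes in each tercile, with the number of barcodes; bars are 95% counting intervals. At 96 h the mitosis-positive barcodes lie at 114 and 122 CPM in the highest and middle terciles, against 279 and 428 CPM for the non-cycling ones.

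In T or NK-like and neutrophil-like barcodes the metallothionein UMIs were close to the amount that free RNA would bring. Clusters were named from fixed markers, and each class was compared through its counts of Alb, a transcript known as a hepatocyte product. The ratio of Mt1 and Mt2 to Alb in free RNA, applied to the Alb level of the class, gave an estimate of the level from free RNA alone. T or NK-like barcodes stood at 17.7 CPM in the adult control, 3902 CPM at 24 h, 1104 CPM at 48 h, 53.1 CPM at 96 h and 31.9 CPM in P14, which was 0.793, 1.01, 0.961, 0.864 and 0.974 of that level. Neutrophil-like barcodes stood at 39.7, 3411, 1011, 97.99 and 47.8 CPM in the same order, or 1.26, 1.06, 1.25, 1.06 and 1.10 of it. Monocyte or dendritic-like barcodes had 2.14, 1.137, 1.00, 2.18 and 2.37 times the level from free RNA, and B-like barcodes 0.822, 1.13, 1.48, 1.05 and 1.83 times.

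Endothelial-like barcodes stood well above that amount in 2 libraries. They stood at 333 CPM in the adult control (244 to 442, 25 barcodes), 11.9 times the level from free RNA and above the 159 CPM of hepatocyte barcodes, and at 451 CPM at 96 h (357 to 562, 25 barcodes), 6.00 times the level from free RNA. At 24 h they stood at 5798 CPM and at 48 h at 1915 CPM, 0.959 and 0.502 of the level from free RNA. A level like that of the adult control would not be detectable over free RNA at these times. At 48 h the estimate through Alb (3812 CPM) lay above the measured level (1735 to 2108), so it was too high for this class. The ratios of the other classes rest on the same kind of estimate, and its error was not tested. In P14 18 endothelial-like barcodes stood at 125 CPM, 1.83 times that level. The 18 erythroid-like barcodes of P14 stood at 537 CPM (471 to 609), 34.3 times the level from free RNA, with 2.54 Mt1 UMIs per Mt2 UMI against 25.04 in free RNA. All 241 of these UMIs came from 7 of the 18 barcodes, so this is not a level of the class as a whole. Erythroid-like barcodes of the adult control stood at 11.0 CPM and those of 96 h at 49.3 CPM, 0.789 and 1.15 times the level from free RNA. At 24 h 135 stood at 3619 CPM and at 48 h 32 stood at 2057 CPM, 1.48 and 1.78 times that level, with a UMI in each barcode. Of the hepatocyte barcodes, 6 to 20 per library lay in the endothelial-like cluster, and leaving out barcodes in clusters of other classes, a setting added after the data were seen, gave log2 ratios of 6.25, 5.89, 0.94 and 0.79 for the summed hepatocyte level at 24 h, 48 h, 96 h and P14 over the adult control.

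Genes of zinc transport and MTF1 itself lay within 2-fold of the adult control by CPM + 1 at the 3 times after PHx where they could be compared. Of 20 listed genes 18 had at least 5 CPM at 24 h or in the adult control. Of these, 0 were 2-fold higher and 0 lower, against 8.51% and 7.13% of all genes, with a median log2 ratio of -0.07 beside -0.00086 over all genes tested. At 48 h and 96 h it was again 0 higher and 0 lower of 17 genes, against 8.3% and 7.63% of all genes at 48 h and 4.07% and 1.88% at 96 h. In a list of this size such shares stand for only a few genes. Whether a count of 0 differs from the background was not tested, and it is not read as a result about the list. Mtf1, the zinc-sensing factor, stood at 23.7 CPM in the adult control and 18.3, 16.8, 19.0 and 11.1 CPM at 24 h, 48 h, 96 h and in P14. Slc30a1, a zinc exporter at the cell surface and an MTF1 target, stood at 48.9 CPM in the adult control and 46.4, 35.9, 33.2 and 23.3 CPM in the same order. Slc39a14, a zinc importer known to be induced by interleukin 6 in liver, stood at 229 CPM in the adult control and 381, 329, 210 and 280 CPM. Its log2 ratio of 0.73 at 24 h lay below 2-fold. Slc39a10, also an importer, went from 2.63 to 5.74 CPM, on 35 and 112 UMIs. Its log2 ratio was 0.89 only through the added 1 CPM, and its count ratio alone was over 2-fold, with a log2 interval of 0.57 to 1.72. The least at 24 h was Slc39a4 (log2 -0.82, from 42.7 to 23.8 CPM), also a zinc importer. At 48 h Slc39a4 stood at 21.1 CPM, just past 2-fold lower by CPM alone and at -0.98 with the added 1 CPM. In P14 1 of 18 was higher and 5 lower, against 7.89% and 13.8% of all genes, with a median of -0.46 beside -0.26 over all genes. Of 11 copper-handling genes 9 were usable and 3 were 2-fold higher at 24 h: Steap4, a metalloreductase, Cp, the plasma copper carrier ceruloplasmin, and Cox17, a mitochondrial copper chaperone, with log2 ratios of 1.62, 1.24 and 1.23. The copper exporter Atp7b stood at -0.69. At 48 h 0 of 9 reached 2-fold in either direction, but Steap4 and Cp stood just under it at 0.98 each and Cox17 at 0.88, and the median of the list was 0.66, against 0.27 at 24 h.

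Lists of genes that respond to signals known to act on metallothioneins differed from each other. The lists were chosen with results of these libraries known and give no independent support for a direction. Their counts stand beside shares over all genes, higher and lower, of 8.51% and 7.13% (24 h), 8.3% and 7.63% (48 h), 4.07% and 1.88% (96 h), and 7.89% and 13.8% (P14). Of 22 genes of the IL-6 and STAT3 response, 14 were at least 2-fold higher and 0 lower at 24 h, with a median log2 ratio of 1.12, and of 21 usable at 48 h 13 were higher and 1 lower, with a median of 1.46. The highest at 24 h were Lcn2, an iron-siderophore binding protein (6.06), Orm2, an acute phase protein (4.51), and Saa2, serum amyloid A (3.94). Socs3, the feedback inhibitor of STAT3 signalling, was lower than in the adult control (69.7 CPM), with 40.4 CPM at 24 h, 22.5 CPM at 48 h and 12.9 CPM at 96 h (log2 -0.77, -1.59 and -2.35). Stat3 itself stood at 148 CPM in the adult control and at 163, 164 and 121 CPM. At 96 h 1 of 21 was higher and 3 were lower, and in P14 2 were higher and 8 lower. Orm2 stood at 0.976 CPM in P14 against 71.2 CPM in the adult control, and Saa2 at 5.44 against 1365 CPM.

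Of 14 glucocorticoid-response genes 5 were higher and 2 lower at 24 h, with a median of 0.22. At 48 h 3 were higher and 2 lower (median -0.32), at 96 h 1 was higher and 1 lower (-0.28), and in P14 3 were higher and 3 lower (-0.40). Besides Lcn2, Sgk1, a kinase, stood at 3.26 and Fkbp5, a co-chaperone of the receptor, at 1.97, whereas Hsd11b1, which regenerates active glucocorticoid, stood at -1.53 and Dusp1, a phosphatase, at -1.20. The receptor gene Nr3c1 stood at 136 CPM in the adult control and 91.8, 77.5 and 118 CPM at 24 h, 48 h and 96 h. In P14 Fkbp5 stood at 75.3 CPM against 18.2 CPM in the adult control and 74.3 CPM at 24 h. Of 12 usable NRF2-response genes 5 were higher and 0 lower at 24 h, led by the glutathione transferases Gstm3 (4.74) and Gsta1 (3.37) and by Srxn1, sulfiredoxin (1.72), and at 96 h 5 were higher and 0 lower. At 48 h 3 were higher and 0 lower, and in P14 0 of 11 were higher and 5 lower, with a median of -0.51. Of 11 genes that respond to tissue dissociation 0 were higher and 1 lower at 24 h, and 3 of 12 were higher and 1 lower at both 48 h and 96 h. The lower one at 24 h was Hspa1b, a heat shock protein (-2.22), and Fos, an immediate early gene, stood at 0.68. The median of this list was 0.19 at 24 h and 0.45 and 0.60 at the later times. In P14 1 of 11 was higher and 3 were lower, with a median of -0.70. The part of this response in the metallothionein levels was not tested.

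**Figure D5:**
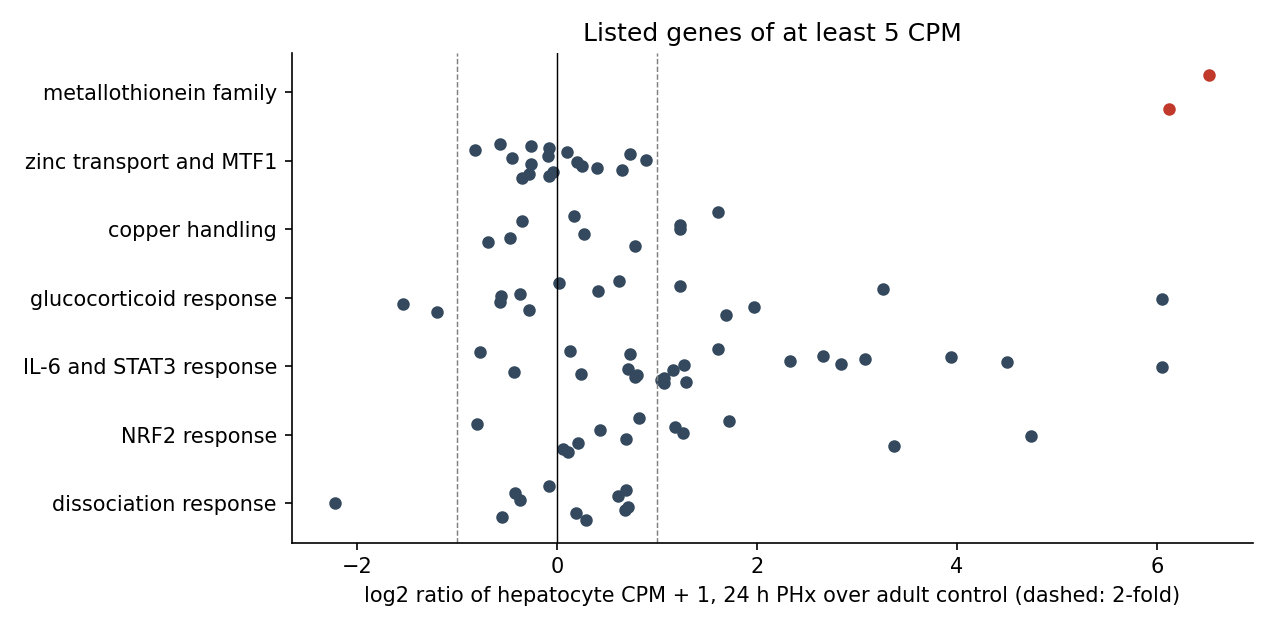
Log2 ratio of CPM + 1 at 24 h over the adult control for each listed gene of at least 5 CPM in either library; dashed lines mark 2-fold. Mt1 and Mt2 stand at 6.13 and 6.52, all 18 zinc transport genes lie within 2-fold on this scale (Slc39a10 at 0.89 only through the added 1 CPM), and Lcn2 at 6.06 is the nearest listed gene.

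Across the 5 libraries, the gene other than the members whose profile lay closest to the summed level was Lcn2. Likeness was the root-mean-square difference of centred log2(CPM + 1) over the 5 libraries among 3377 genes of at least 50 CPM in 1 library or more, with a flat profile at 2.71. Lcn2, at 0.645, stood at 72.3 CPM in the adult control, 4874 CPM at 24 h, 3307 CPM at 48 h, 229 CPM at 96 h and 51.3 CPM in P14. It lay closer than Mt2 (0.876) but not as close as Mt1 (0.159), which makes up most of the summed level. Ly6d, a surface protein, followed at 0.991 with 2.55, 216, 39.6, 7.22 and 1.32 CPM. Apcs, serum amyloid P (1.27), Btg3 (1.29), Saa3 (1.32), Fam25c (1.35), Pbk (1.40), Dnajc12 (1.40), S100a9 (1.42) and S100a8 (1.43) completed the first 10. S100a9 and S100a8 are known neutrophil products, and neutrophil markers summed to 669 CPM of free RNA at 24 h and 1579 at 48 h against 102 and 191 CPM in hepatocyte barcodes. The part of neutrophil RNA in their place was not tested. The order describes these libraries only.

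Across hepatocyte barcodes of 1 library, the coefficients of other genes with the members were small. Among 715 genes of at least 200 CPM at 24 h the highest Pearson coefficients with the summed thinned counts were those of Gm42418 (0.35), C3, complement component 3 (0.24), and Gpx1, a glutathione peroxidase (0.23). At 48 h C3 (0.27), Wfdc21 (0.23), Hamp, the iron hormone hepcidin (0.22), and Saa1 (0.21) were highest among 681 genes. In the adult control Alb (0.20) and the plasma haem and haemoglobin binders Hpx (0.17) and Hp (0.16) stood among the 5 highest of 741 genes. The lowest coefficients recurred across libraries: Mup17, a major urinary protein, at -0.20 (adult control), -0.22 (24 h) and -0.20 (48 h), and the pericentral enzymes Oat at -0.20 (adult control), -0.20 (24 h) and -0.15 (96 h) and Cyp2c29 at -0.19, -0.25 and -0.11 in the same libraries. In P14 the coefficients ran from -0.085 for Cps1, a urea cycle enzyme, to 0.13 for Fabp1, a fatty acid binding protein. Low counts limit such coefficients: thinned adult control barcodes held a mean of 0.562 UMIs of the 2 members. By the same measure Mt1 and Mt2 reached 0.54 with each other at 24 h, 0.55 at 48 h and 0.45 at 96 h. They reached only 0.18 in the adult control and 0.22 in P14. Small coefficients therefore do not show that no gene followed the members, and genes of 1 barcode share its depth and composition.

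Levels on both sides of the limits that define a hepatocyte barcode are given once, as a description. At 24 h barcodes within 2 percentage points below the mitochondrial limit of 30% stood at 10856 CPM and those just over, by up to 2 percentage points, at 10857 CPM. In the adult control the pair was 149 and 116 CPM, at 48 h 8852 and 8889, at 96 h 248 and 281, and in P14 240 and 246. At the limit of 10%, few barcodes lay within 2 percentage points: 14 inside stood at 470 CPM and 6 outside at 197 CPM in P14, 5 and 10 at 11899 and 12832 CPM at 24 h, 1 and 9 at 3369 and 8628 CPM at 48 h, and 3 and 11 at 157 and 222 CPM at 96 h, while the adult control had 2 on each side with 0 UMIs. At the depth limit, barcodes within 1000 UMIs above it stood at 11788 CPM at 24 h and those within 1000 UMIs below it at 9133 CPM. The pair was 149 and 169 CPM in the adult control, 7509 and 5592 CPM at 48 h, 263 and 380 CPM at 96 h, and 309 and 341 CPM in P14. At the limit of Alb, Apoa1 and Ttr, 68 adult control barcodes just inside (1% to 1.5%) stood at 40.3 CPM and 4 just outside (0.5% to under 1%) held 0 UMIs. At 24 h 117 inside stood at 9588 CPM and 3 outside at 9283 CPM, and at 48 h 5 inside stood at 9438 CPM and 1 outside held 2 UMIs. At 96 h 2 on each side held 0 UMIs, and P14 had 0 barcodes inside and 1 outside, with 1 UMI.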

How the data were processed

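Liver cells of 5 libraries, 1 per group, had been made with a 10x v3 kit, per the labels' protocols. The authors deposited whole-number UMI counts per gene and barcode without normalization, for 31053 genes and 6794880 barcodes per library; software version 3.0.2 wrote the matrices, per the file headers. The submitters' processing notes name the build mm10, bcl2fastq 2.17.1.14, Cell Ranger and Seurat 3.1; filters and the annotation are not given in the sources used here.

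Counts of hepatocyte barcodes (limits in the text) were summed and scaled to CPM on a total that leaves out the 13 mitochondrial genes. That total was 13316829 UMIs in the adult control, 19515295 UMIs at 24 h, 20833042 UMIs at 48 h, 13439340 UMIs at 96 h and 64576753 UMIs in P14. Ratios were log2((CPM + 1)/(CPM + 1)), with exact conditional 95% intervals of the count ratio, and shares had exact Clopper-Pearson intervals; UMIs remove most PCR copies, and the intervals cover counting error only. A ratio was counted from 2-fold in genes that reached 5 CPM on one side. With 1 library per group there was no test. An upper limit for a count of 0 used 3 counts.

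Barcodes of at least 3000 UMIs and 500 genes and at most 30% mitochondrial UMIs (14907) were clustered with scanpy 1.11.5 and igraph 0.11.9 without Mt1, Mt2 and mitochondrial genes; clusters were named from 11 marker lists, a name needing 3 markers, so names may differ from the study's. Doublets were scored with Scrublet and left in except in the other cell classes and in 1 alternative. TMM factors came from edgeR 4.0.16. The scripts were checked on simulated data.

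Members, lists and rules were chosen with earlier results of these data known. Named were all 4 metallothioneins, of each other list the 3 highest and 3 lowest genes at 24 h and 7 set genes (Mtf1, Slc30a1, Slc39a14, Slc39a10, Nr3c1, Socs3, Stat3), the 10 nearest profiles across libraries, and the 5 highest and 5 lowest coefficients across barcodes; some genes within the rule were left out for brevity. Alternatives varied the limits, the total, the scaling, free RNA, the pseudocount, doublets and depth.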

Additional observations from a re-analysis of the deposited data

How the results depend on the processing

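No paired analysis was possible because each group is 1 library. Values are log2 ratios of the summed Mt1 and Mt2 level over the adult control, in the order 24 h, 48 h, 96 h and P14, against 6.25, 5.90, 0.93 and 0.79 as reported. All 12 alternatives kept the direction of these 4. They were 7.69, 7.10, 1.91 and 1.60 under 10% mitochondrial UMIs, 6.46, 6.00, 1.21 and 0.91 at 10% to 20%, and 5.91, 5.34, 0.50 and 0.31 with Alb, Apoa1 and Ttr of at least 3%. Barcodes under 10% mitochondrial UMIs had less Alb than free RNA in every library, and whether they were hepatocytes was not tested. Subtracting free RNA gave 6.11, 5.83, 0.85 and 0.72. The median over cells gave 6.90 and 6.57 at 24 h and 48 h and 1.10 in P14. A pseudocount of 10 CPM gave 6.17 and 5.82 at 24 h and 48 h. TMM factors gave 5.98 at 48 h and 1.07 in P14. Thinning gave 1.08 at 96 h and 0.89 in P14, and counting mitochondrial genes in the total gave 0.88 in P14. The cause of these shifts was not tested. The remaining alternatives, a minimum of 10000 UMIs, removal of doublets, and leaving out barcodes in clusters of other classes (added after seeing the data), stayed within the counting interval for all 4. Whether the ratio reached 2-fold at 96 h and in P14 thus depended on the settings. For Mt2 at 96 h the direction did too, at -0.07 with the 3% limit. For Mt2 in P14 the value was -0.05 under 10% mitochondrial UMIs, and 8 of the 12 alternatives were at least 2-fold lower.

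Genes at least 2-fold higher or lower numbered 1412, 1439, 529 and 1958. At a minimum of 50 CPM they numbered 510, 548, 166 and 815. In P14 the higher share of these calls was 36.3%, and 58.1% with TMM factors. Depth limits values near 1 UMI per cell, such as Mt2 in the adult control and P14.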
